A study of Homo sapiens with 40 samples.

Results

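The response to IL-13 was measured in polysome RNA of BEAS-2B cells labelled as an IGF2BP3 knockdown, from 10 of the 40 libraries of the series, 5 unstimulated and 5 treated with IL-13. These were the libraries whose labels give polysome as the fraction and the IGF2BP3 knockdown as the genotype. BEAS-2B is an immortalised human bronchial epithelial line, and both lines of the study carried a constitutive hairpin, against IGF2BP3 or a control. All cells were grown in RPMI with 10% FBS and starved overnight in 2% medium, and treated cells then received IL-13 at 100 ng/ml, with harvest 24 h later per the growth protocol. The series' design text gives the stimulation as overnight. Total RNA (input) and RNA bound to polyribosomes (polysome) were separated by Frac-seq, and polyadenylated RNA was sequenced. The other 30 libraries held the control line and input RNA, in groups of 5. There was 1 line per hairpin, so the hairpin and any other difference between the lines cannot be told apart. The sample titles write siIGF2BP3 where the growth protocol describes constitutive hairpin lines. No label says that replicates came from separate cultures, so the p-values measure only the spread between these libraries, which may be technical.

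IL-13 is a type 2 cytokine that binds a receptor made of IL13RA1 and IL4R. The receptor's kinases, JAK1, JAK2 and TYK2, phosphorylate STAT6, which enters the nucleus and switches on target genes, among them feedback inhibitors of the SOCS family and, in airway epithelium, chemokines that draw eosinophils. IGF2BP3 is an RNA-binding protein that binds mRNAs and affects their stability and translation, and RNA on polyribosomes is the part of the mRNA pool engaged by several ribosomes.

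The unstimulated libraries held 3980588, 18868715, 18232512, 24922300 and 1816848 estimated counts, and the IL-13 libraries 25016505, 29422168, 33763265, 31594191 and 2302952. The shallow libraries were thus unstimulated replicates 1 and 5 and IL-13 replicate 5. These 3 also lay farthest out on the first principal components of the 10 libraries, which held 35.6% and 19.9% of the variance. The epithelial keratins KRT8 and KRT18 were present in every library (208 to 594 and 369 to 930 CPM), as was vimentin (VIM, 675 to 997 CPM), while the epithelial junction gene CDH1 reached at most 0.507 CPM and the epithelial regulators GRHL2 and ESRP1 were at 0 in all 10. Of 23 leukocyte markers, 16 had at most 3 counts in every library, and the summed level of the list was 14.6 to 54.9 CPM unstimulated and 16.4 to 64.6 CPM with IL-13. CPM relates each count to the scaled size of its library, so each value is a share of the polysome RNA sequenced. In such bulk RNA, fewer cells with a transcript and less of it per cell cannot be told apart.

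IGF2BP3, the gene the hairpin targets, measured 7.01, 8.62, 7.71, 4.90 and 25.6 CPM in the unstimulated polysome libraries and 14.5, 6.54, 12.6, 8.44 and 2.61 CPM with IL-13. Its range in control polysome libraries, 4.82 to 18.3 CPM unstimulated and 3.84 to 12.2 CPM with IL-13, overlapped both groups. The level in cells labelled knockdown was not below that in control cells beyond this spread, with a log2 difference of -0.01 unstimulated (two-sided exact permutation test of log2(CPM + 1), p = 0.968, 5 against 5 libraries) and -0.24 with IL-13 (exact permutation p = 0.603). The unstimulated difference includes the shallow replicate 5 of cells labelled knockdown, at 25.6 CPM from 54 counts. The other libraries of that group lay at 4.90 to 8.62 CPM, and the comparison without replicate 5 was not tested. Within that limit the label was not borne out by polysome RNA of the targeted gene. In input RNA of the same cells IGF2BP3 was at 26.1 ± 3.10 CPM unstimulated and 27.0 ± 6.72 CPM with IL-13 (SD, n = 5). Its input level was not compared between the lines here, so the knockdown in total RNA was not tested. The word knockdown follows the labels throughout, and the values that follow are of polysome RNA. IL-13 did not change IGF2BP3 beyond the spread (log2 fold change -0.18 ± 0.50 SE), nor its paralogs IGF2BP1 (-0.42 ± 0.54) and IGF2BP2 (0.23 ± 0.33), all with an edgeR adjusted p of 1.00. The IGF2BP3 value rested on unstimulated replicate 5, at 25.6 CPM from 54 counts, and without that library it was 0.38.

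IL-13 raised a small set of genes in polysome RNA of cells labelled knockdown: CISH, HSD3B1, PPFIBP2, RFLNA, SPINT2, RNF19B and CCDC86 were among the 8 genes called higher, and this fit called no gene lower. The 8 genes were 0.0549% of the 14582 tested, at an adjusted p under 0.05 in edgeR's quasi-likelihood test fitted on the 20 polysome libraries. All 8 had every IL-13 library above every unstimulated library, as did 0.391% of all genes tested (57 genes), while 24 genes (0.165%) had every IL-13 library below. Such a separation can also arise without an effect, so for an uncalled gene it only describes the libraries. At an unadjusted p under 0.05 there were 102 genes higher (0.699%) and 75 lower (0.514%), fewer in all than the 729.1 that make up 5% of the genes tested. When all 40 libraries shared 1 estimate of the spread, 16 genes (0.0956% of 16735) were called, 15 higher and 1 lower. Other tests of the same contrast also called lower genes: RAPGEF3 (log2 fold change -3.87 ± 1.04 in edgeR, adjusted p = 0.81) passed in DESeq2 and limma voom, and SLC37A4 (-1.18 ± 0.33, edgeR adjusted p = 0.91) and PCOLCE2 (-1.49 ± 1.06, edgeR adjusted p = 1.00) passed in limma voom, all 3 with overlapping libraries. The smaller fit was used because polysome libraries varied more than input libraries, with a typical coefficient of variation between replicates of 0.481 against 0.332.

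**Figure D1:**
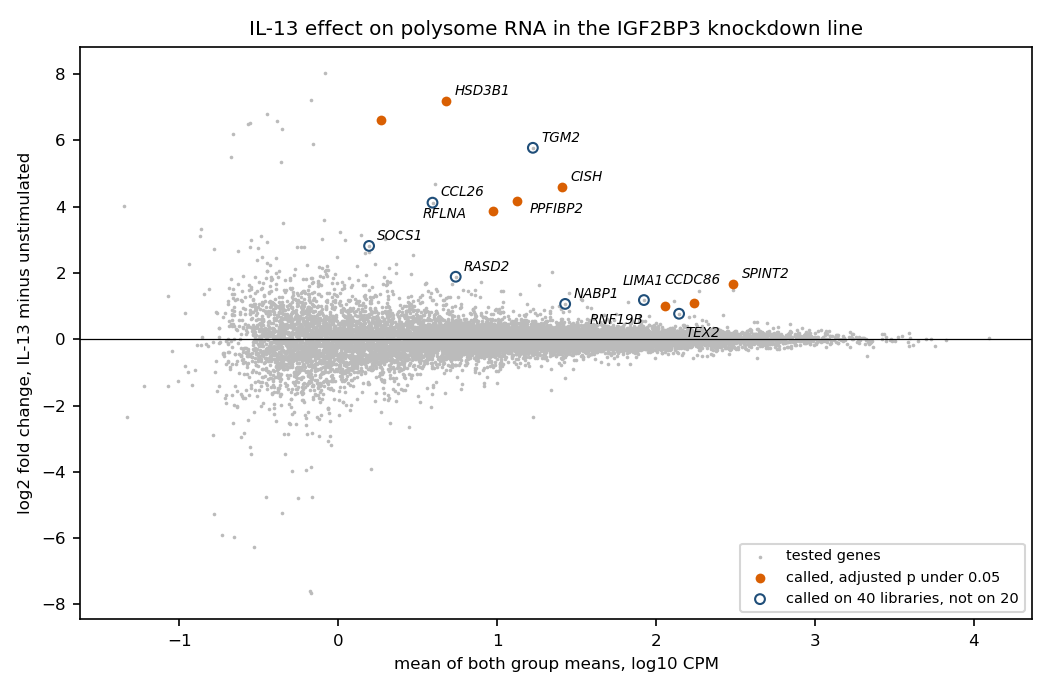
Log2 fold change (IL-13 minus unstimulated) against the mean level of each of 14582 genes on a log10 CPM axis, in polysome RNA of cells labelled knockdown. Filled orange points are the 8 called genes (7 are labelled), all above 0, and open blue circles are genes called in the fit of all 40 libraries but not in that of 20.

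CISH, a SOCS-family inhibitor that STAT proteins induce and that damps cytokine receptor signalling, gave the smallest p. Its level was 1.25, 1.49, 3.02, 1.50 and 3.32 CPM in unstimulated replicates 1 to 5, and 40.6, 52.1, 43.9, 50.2 and 59.2 CPM with IL-13. The groups did not overlap, and the shallow libraries lay among or near the others, the highest value of each group being that of its replicate 5. CISH rose by 4.59 ± 0.31 (SE) on the log2 scale (edgeR adjusted p = 1.8e-08). Per transcript length, in the deposited TPM, it went from 1.34 ± 0.653 to 30.8 ± 4.02 (SD, n = 5).

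HSD3B1, a 3-beta-hydroxysteroid dehydrogenase of steroid hormone synthesis, went from almost no reads to a steady low level. It was at 0 in 4 unstimulated libraries and at 0.212 CPM (4 counts) in replicate 2, against 8.38, 9.42, 8.06, 12.3 and 9.57 CPM with IL-13. All IL-13 libraries were thus close together and far from the unstimulated ones, including replicate 5, where the value came from 22 counts. The fitted log2 fold change was 7.18 ± 0.77 (SE; edgeR adjusted p = 4.3e-05). Its size rested on the 4 counts of unstimulated replicate 2: over the fits without 1 library it ran from 6.69 to 10.5, always called. PPFIBP2, a liprin-beta scaffold protein, was at 0, 2.23, 1.43, 1.92 and 0 CPM unstimulated and at 17.6, 25.0, 18.0, 18.8 and 48.7 CPM with IL-13. Both unstimulated zeros and the highest IL-13 value were those of the 3 shallow libraries. PPFIBP2 rose by 4.17 ± 0.50 (SE) on the log2 scale (edgeR adjusted p = 0.00018), and by 3.41 ± 0.33 without the shallow libraries (edgeR adjusted p = 3.3e-05).

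The promoters of these 3 genes are shown because their windows held the paired letters that STAT proteins are known to bind, TTC and GAA, parted by 3 bases (a spacing typical of STAT5) or by 4 (typical of STAT6). The windows are from RefSeq on GRCh38.p14, from 250 bases before to 50 after the annotated start, 5′ to 3′ on the gene's strand, with each match in capitals. The CISH window was chr3:50611725-50612024 on the minus strand, that of HSD3B1 chr1:119506953-119507252 on the plus strand, and that of PPFIBP2 chr11:7577641-7577940 on the plus strand, the third of 5 windows annotated for that gene.
CISH: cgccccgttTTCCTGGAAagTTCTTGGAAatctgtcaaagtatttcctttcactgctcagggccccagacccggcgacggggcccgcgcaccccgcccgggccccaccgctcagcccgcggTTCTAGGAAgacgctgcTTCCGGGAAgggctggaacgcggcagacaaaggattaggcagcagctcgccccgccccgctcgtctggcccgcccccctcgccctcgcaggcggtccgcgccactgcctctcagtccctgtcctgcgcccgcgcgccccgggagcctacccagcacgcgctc
HSD3B1: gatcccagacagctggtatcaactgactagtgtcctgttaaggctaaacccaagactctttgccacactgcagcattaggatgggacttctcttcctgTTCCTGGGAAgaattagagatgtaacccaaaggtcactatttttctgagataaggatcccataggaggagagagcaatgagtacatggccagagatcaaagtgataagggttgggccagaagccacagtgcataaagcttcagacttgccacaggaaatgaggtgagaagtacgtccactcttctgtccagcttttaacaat
PPFIBP2: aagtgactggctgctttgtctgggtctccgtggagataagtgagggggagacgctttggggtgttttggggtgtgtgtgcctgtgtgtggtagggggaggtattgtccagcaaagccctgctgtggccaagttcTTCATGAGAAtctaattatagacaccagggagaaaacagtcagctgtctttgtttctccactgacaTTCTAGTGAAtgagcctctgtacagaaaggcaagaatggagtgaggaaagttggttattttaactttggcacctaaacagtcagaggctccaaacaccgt
CISH held 4 matches of TTCNNNGAA, whose first bases lay at positions -241, -230, -129 and -112, counted back from the annotated start. HSD3B1 held 1 match of TTCNNNNGAA, at -152, and this PPFIBP2 window held 2, at -116 and -50. Each motif reads the same on both strands, and the pair do not overlap in these windows. Of all 35116 windows of this length, 7.66% held TTCNNNGAA and 6.44% held TTCNNNNGAA, while 4 or more of the former occurred in 7 windows (0.02%). Of 15 genes looked for, 11 had a window in the table, and 8 of their 18 windows, from 5 genes, held either motif. These windows are not independent, as the 2 of HSD3B1 overlap and hold the same match, and several belong to PPFIBP2. The share of all windows holding either motif was not computed, so the count has no background beside it and does not describe an enrichment. The PPFIBP2 window was chosen for its matches, and 2 of the 5 for that gene held none. A match describes letters in a window, and binding was not measured here.

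RFLNA, or refilin A, a filamin-binding regulator of the actin cytoskeleton, was at 2.00, 0.743, 1.37, 1.59 and 0 CPM unstimulated and at 12.6, 19.7, 21.0, 21.3 and 13.9 CPM with IL-13. The groups did not overlap, and RFLNA rose by 3.86 ± 0.48 (SE) on the log2 scale (edgeR adjusted p = 0.00027). SPINT2, a Kunitz-type inhibitor of serine proteases at the epithelial surface, was far more abundant than these genes at the start. Its level was 123, 151, 169, 172 and 125 CPM unstimulated and 344, 665, 401, 438 and 484 CPM with IL-13. No library of one group reached the other, and SPINT2 rose by 1.65 ± 0.23 (SE) on the log2 scale (edgeR adjusted p = 0.0010). Per length it was the most abundant of the 7 called genes named, at 119 ± 18.0 TPM unstimulated and 372 ± 71.0 TPM with IL-13 (SD, n = 5). Without the 3 shallow libraries its log2 fold change was 1.49 ± 0.28 and its edgeR adjusted p 0.16, so the call was lost while the size was close to that in all libraries.

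RNF19B, an E3 ubiquitin ligase, and CCDC86, a nucleolar coiled-coil protein, made the smallest steps and sat nearest to the threshold. RNF19B was at 71.6, 83.0, 76.6, 92.5 and 50.8 CPM unstimulated and at 137, 176, 139, 161 and 147 CPM with IL-13. CCDC86 was at 119, 120, 119, 113 and 76.9 CPM unstimulated and at 190, 226, 236, 281 and 251 CPM with IL-13. For both genes the groups did not overlap, and the shallow unstimulated replicate 5 was the lowest library. RNF19B rose by 1.02 ± 0.19 (SE) on the log2 scale (edgeR adjusted p = 0.039) and CCDC86 by 1.10 ± 0.21 (edgeR adjusted p = 0.048). Neither call was stable to a smaller set of libraries. Leaving out any of the 10 lost the call of CCDC86 (edgeR adjusted p from 0.053 to 0.22). Leaving out any but unstimulated replicate 4 lost that of RNF19B (edgeR adjusted p from 0.042 to 0.15). The log2 fold changes in these fits stayed at 1.00 to 1.17 for CCDC86 and 0.91 to 1.10 for RNF19B. CISH, HSD3B1, PPFIBP2, RFLNA and SPINT2 were called in each of these 10 fits.

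**Figure D2:**
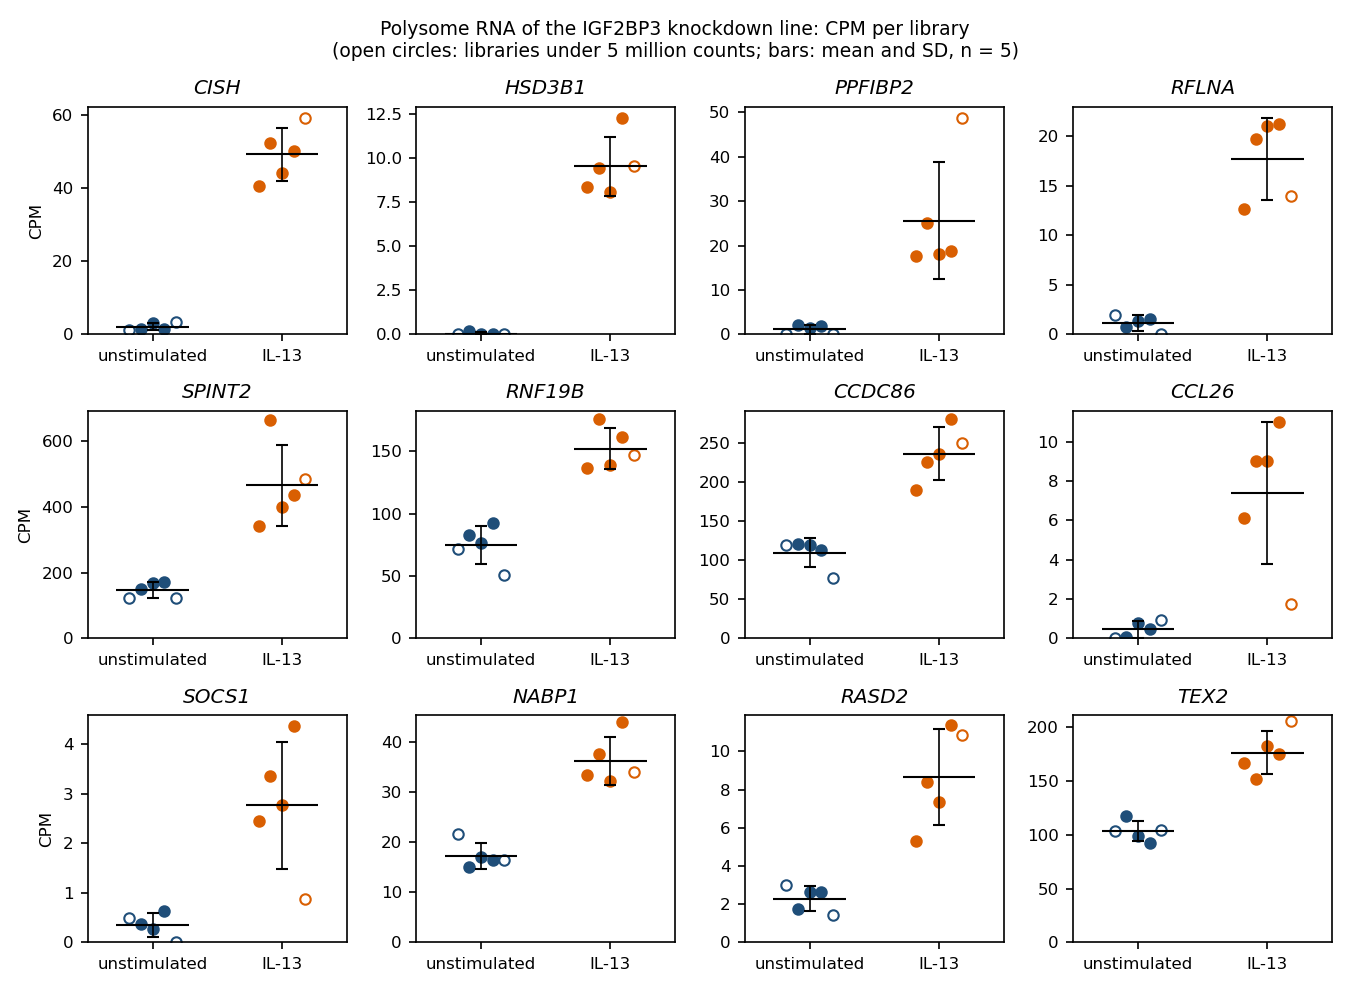
Level in CPM (each axis from 0) of 12 genes in the 5 unstimulated and 5 IL-13 polysome libraries of cells labelled knockdown, with the mean and SD as bars and libraries under 5000000 counts as open circles. The upper panels show genes whose libraries are far apart, and CCL26 and SOCS1 show the shallow IL-13 replicate 5 near the unstimulated libraries.

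Further genes, not called on the 20 polysome libraries, were called when all 40 shared the spread, among them the IL-13 targets CCL26, SOCS1 and TGM2. All of them but CEP350 were also called by DESeq2, limma voom or both. CCL26, or eotaxin-3, a chemokine for eosinophils, was at 0, 0.0531, 0.796, 0.473 and 0.949 CPM unstimulated and at 6.11, 9.00, 9.03, 11.0 and 1.74 CPM with IL-13. The low IL-13 value was that of the shallow replicate 5, which still lay above every unstimulated library. Its log2 fold change was 4.12 ± 0.83 (SE), with an edgeR adjusted p of 0.088 on the 20 polysome libraries and 0.00063 on all 40. SOCS1, a feedback inhibitor of JAK kinases, was at 0.500, 0.372, 0.265, 0.644 and 0 CPM unstimulated and at 2.44, 3.36, 2.79, 4.38 and 0.870 CPM with IL-13. Here too replicate 5 was the lowest IL-13 library, and the groups did not overlap. Its log2 fold change was 2.82 ± 0.59 (SE; edgeR adjusted p = 0.11 on 20 libraries and 0.0010 on 40).

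TGM2, a transglutaminase that crosslinks proteins, varied most among the induced genes. It was at 0, 0.321, 1.72, 0.239 and 0 CPM unstimulated and at 7.35, 18.0, 28.4, 84.8 and 27.0 CPM with IL-13. Every IL-13 library was higher than every unstimulated one, while IL-13 replicate 4 stood far above the rest of its group. The log2 fold change was 5.78 ± 1.22 (SE; edgeR adjusted p = 0.11 on 20 libraries and 0.049 on 40). NABP1, a single-stranded nucleic acid binding protein of DNA repair, had a smaller and more even difference, from 15.0 to 21.7 CPM unstimulated and from 32.2 to 44.0 CPM with IL-13 (log2 fold change 1.07 ± 0.21; edgeR adjusted p = 0.061 on 20 libraries and 0.0019 on 40). RASD2, a Ras-like small GTPase, was at 1.42 to 3.00 CPM unstimulated and 5.30 to 11.4 CPM with IL-13 (1.89 ± 0.39; edgeR adjusted p = 0.11 and 0.028). TEX2 was at 92.5 to 118 CPM unstimulated and 152 to 206 CPM with IL-13 (0.77 ± 0.17; edgeR adjusted p = 0.17 and 0.049). For LIMA1, an actin-binding LIM protein, the ranges of 34.1 to 76.7 CPM and 76.8 to 152 CPM nearly met (1.18 ± 0.31; edgeR adjusted p = 0.67 and 0.049). The 1 gene called lower on 40 libraries, CEP350, a centrosomal protein, was at 4.35 CPM in unstimulated replicate 4 and at 0 in the other 9 libraries, and it did not pass the filter on low counts in the 20 libraries. That call rested on a single library.

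**Figure D3:**
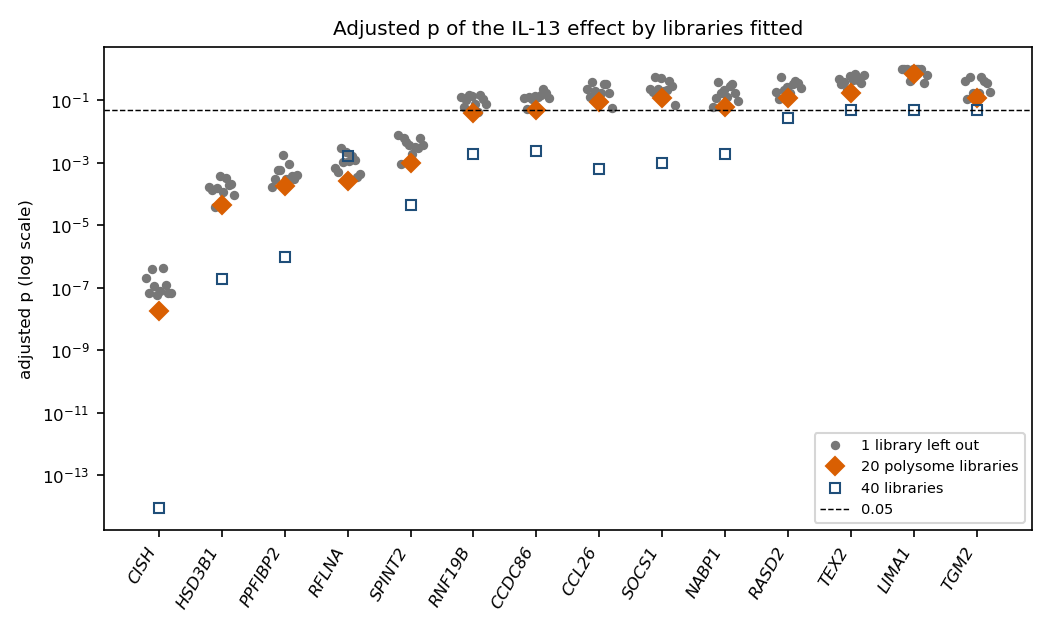
Adjusted p (log scale) of the IL-13 effect for 14 genes in the fit of 20 polysome libraries (diamonds), in the 10 fits that leave out 1 library each (grey points) and in the fit of 40 libraries (open squares). CISH, HSD3B1, PPFIBP2, RFLNA and SPINT2 stay under the dashed line at 0.05 in all of them, and RNF19B and CCDC86 do not.

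Most genes of a list of IL-13-induced genes, which was not limited to airway epithelium, were silent or nearly so in these libraries. Of 46 listed genes 11 passed the filter on low counts, and a gene at 0 without IL-13 could pass it only through its IL-13 libraries. Of the list, 22 genes had at most 3 counts in every library. The mucin MUC5AC, the goblet cell factor SPDEF and the chloride channel regulator CLCA1 reached at most 0.0531, 0.172 and 0 CPM. The 11 tested genes had a median log2 fold change of 2.03, which is the value of HAS3, beside 0.0152 over all genes tested. Of the 11, 2 were called, and 7 were higher at an unadjusted p under 0.05 in edgeR. The list was chosen with earlier results of these data known, so its median describes these genes and is not a test of a response. HAS3, a hyaluronan synthase, was at 11.8, 6.63, 10.5, 9.90 and 3.80 CPM unstimulated and at 16.1, 27.6, 20.4, 43.8 and 71.8 CPM with IL-13, without overlap (2.03 ± 0.49; edgeR adjusted p = 0.34, DESeq2 adjusted p = 0.016). PDCD1LG2, the ligand PD-L2 of the inhibitory receptor PD-1, was at 5.89 to 8.76 CPM and at 9.85 to 19.1 CPM with IL-13 (1.13 ± 0.41; edgeR adjusted p = 1.00). MSX1, a homeobox factor, had a log2 fold change of 3.16 ± 1.01, but unstimulated replicate 1, at 1.25 CPM from 5 counts, overlapped the IL-13 libraries (0.922 to 5.66 CPM). CD274, the ligand PD-L1, and CCL2, a monocyte chemokine, had log2 fold changes of -0.16 ± 0.59 and 0.21 ± 0.40, with overlapping libraries.

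The machinery that carries the IL-13 signal was present, and its polysome RNA did not change beyond the spread. Of 31 listed receptor, kinase, STAT and feedback genes 29 were tested, CISH was the 1 called, and the median log2 fold change was 0.0544. Of the receptor chains, IL4R was at 18.5 to 36.3 CPM unstimulated and 16.1 to 37.8 CPM with IL-13 (log2 fold change -0.15 ± 0.34), and IL13RA1 at 32.6 to 58.8 and 24.4 to 71.3 CPM (0.00 ± 0.32). The decoy receptor IL13RA2 was at 0 in all 10 libraries. STAT6 was at 38.4 to 108 and 46.4 to 88.8 CPM (0.00 ± 0.28, 95% interval -0.58 to 0.58). The kinases JAK1, JAK2 and TYK2 had log2 fold changes of 0.48 ± 0.48, 0.56 ± 0.73 and 0.05 ± 0.28, all with overlapping libraries. The feedback inhibitors differed among themselves: beside CISH and SOCS1, SOCS2 was at 0.500 to 4.27 and 0.382 to 2.17 CPM (-0.63 ± 0.66) and SOCS3 at 16.1 to 48.9 and 20.4 to 39.8 CPM (-0.10 ± 0.30), with overlap in both.

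**Figure D4:**
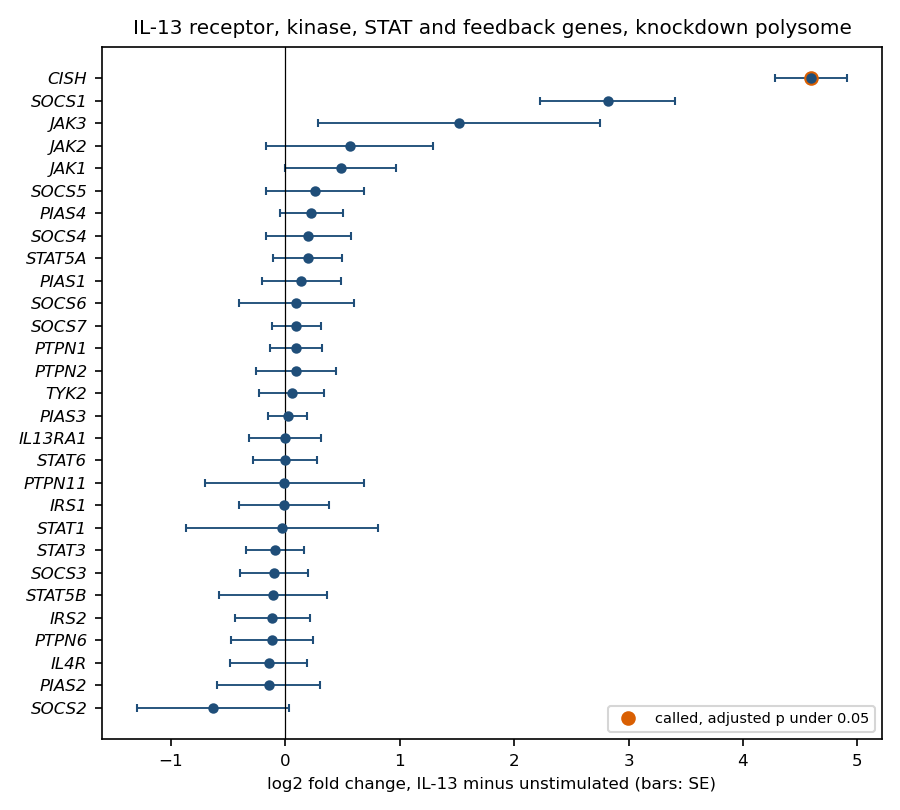
Log2 fold change with SE (IL-13 minus unstimulated) of the 29 tested receptor, kinase, STAT and feedback genes in polysome RNA of cells labelled knockdown. CISH (called, 4.59) and SOCS1 (2.82) lie apart at the top, and the receptor chains and STAT6 lie near 0.

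Uncalled genes of at least 10 CPM without overlap between the groups were taken by smallest unadjusted p in edgeR, up to 5 in each direction. Toward higher values these were NABP1, TGM2, TEX2 and HAS3, described above, and NPPB. Further genes, such as KRT18 and TNC, also met the condition. NPPB, which encodes the natriuretic peptide BNP, was at 89.3, 73.6, 83.8, 128 and 121 CPM unstimulated and at 270, 271, 238, 264 and 320 CPM with IL-13. Per length it was more abundant than SPINT2, at 216 TPM unstimulated and 587 TPM with IL-13. Its log2 fold change was 1.46 ± 0.33 (SE), with an edgeR adjusted p of 0.17, and it was called with only the 10 libraries compared, by DESeq2 and by limma voom. Toward lower values with IL-13, 3 genes met the condition, HELLPAR, WNT7B and FJX1. At any level, 24 genes (0.165% of those tested) had every IL-13 library below every unstimulated library. The long noncoding RNA HELLPAR was at 7.20 to 16.8 CPM unstimulated and 4.56 to 6.81 CPM with IL-13 (-0.92 ± 0.30). WNT7B, a secreted Wnt ligand, was at 8.55 to 14.2 and 4.89 to 7.60 CPM (-0.84 ± 0.30), and FJX1 at 53.8 to 76.2 and 34.5 to 52.8 CPM (-0.56 ± 0.28). None of the 3 was near the threshold, with an edgeR adjusted p of 1.00 each.

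In the other gene groups the edgeR fit on 20 libraries called SPINT2 alone, and its calls are those meant here. Medians of these lists were small but for the endothelial list, and several turned sign when libraries were left out. Of 28 epithelial genes 21 were tested, 7 above 0 and 14 below, with a median of -0.163 (-0.18 to 0.0147 over the fits without 1 library). KRT18 was at 369 to 692 CPM unstimulated and 701 to 930 CPM with IL-13, without overlap (0.47 ± 0.19; edgeR adjusted p = 1.00). Of 33 tested matrix genes none was called in edgeR, while DESeq2 called HAS3, and the median was 0.00163. TNC, which encodes tenascin C, was at 3.07 to 22.8 CPM unstimulated and 24.3 to 68.9 CPM with IL-13, without overlap (1.41 ± 0.45; edgeR adjusted p = 1.00). Among 24 tested immediate-early genes none was called and 18 lay below 0, with a median of -0.124 (-0.253 without the shallow libraries). Against that direction, KLF2, a Krüppel-like transcription factor, was at 0.949 to 5.50 and 6.82 to 19.6 CPM (1.72 ± 0.54; edgeR adjusted p = 1.00). Of 40 translation factors none was called, and EIF3L, a subunit of the initiation factor eIF3, was at 4.88 to 52.9 and 6.86 to 13.4 CPM (-1.54 ± 0.54; edgeR adjusted p = 1.00). The 79 ribosomal protein genes had a median of -0.107, with 70 below 0 and none called, but without the shallow libraries the median was 0.0312. Of 25 cholesterol and lipid synthesis genes 23 lay above 0, with no call and a median of 0.185, which was 0.0808 without the shallow libraries. SREBF1, a transcription factor of lipid synthesis, had the smallest p (0.59 ± 0.35; edgeR adjusted p = 1.00). The 36 tested interferon-stimulated genes (median 0.148) and 21 reported IGF2BP target genes (-0.0642) held no call. Nor did 30 cell cycle genes (-0.00546), 20 ATF4 stress genes (-0.00319) and 15 NF-kappaB genes (0.0516), whose medians took both signs over the fits without 1 library. The 13 mitochondrially encoded mRNAs all lay above 0, with a median of 0.166 (-0.0337 to 0.477 over the fits without 1 library) and no call. Marker lists of other cell types held no call either. Without the shallow libraries the median of 13 mesenchymal genes went from -0.143 to 0.0231, of 4 leukocyte genes from 0.184 to -0.593 and of 3 goblet cell genes from 0.0413 to -0.0947, so none of these had a stable sign. The 6 ciliated cell genes had a median of 0.123 (-0.0274 to 0.389 over the fits without 1 library). The 3 endothelial genes all lay below 0, with a median of -0.999 (-1.32 to -0.794 over the fits without 1 library). Without the shallow libraries that median was -1.31. The summed level of the list was at most 10.0 CPM in any library.

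The same stimulus in polysome RNA of control cells called 9 genes (0.0617% of those tested), of which 6 were also called in cells labelled knockdown, 75% of the 8 and 66.7% of the 9. RNF19B and CCDC86 were called in cells labelled knockdown alone, and CCL26, SOCS1 and NPPB in control cells alone. These differences in calls were not differences in effect that the test could separate. The difference of the IL-13 effect between the lines was called for 0 genes (0%) in edgeR, with 144 genes at an unadjusted p under 0.05; limma voom also called 0 and DESeq2 called 3. For RNF19B the effect was 0.39 ± 0.26 (SE) larger on the log2 scale in cells labelled knockdown (95% interval -0.15 to 0.93) and for CCDC86 0.30 ± 0.29 (-0.30 to 0.90). For CCL26 it was -1.89 ± 1.18 (-4.34 to 0.57), for SOCS1 -0.61 ± 0.79 (-2.25 to 1.03) and for NPPB -0.58 ± 0.45 (-1.51 to 0.36). CISH (0.64 ± 0.39), PPFIBP2 (1.09 ± 0.63) and RFLNA (1.16 ± 0.62) had larger estimates in cells labelled knockdown, with intervals that included 0.

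TGM2 had the smallest unadjusted p for this difference among the induced genes. In control polysome libraries it was at 0 to 15.6 CPM unstimulated and 0.790 to 20.9 CPM with IL-13, which overlap, whereas in cells labelled knockdown the groups did not. Its unstimulated control values had a mean of 3.89 ± 6.57 CPM (SD, n = 5), so the highest library weighed on the control effect. The difference of its effects was 4.43 ± 1.48 (SE; 95% interval 1.35 to 7.50), with an edgeR adjusted p of 1.00. Over all genes the smallest p-values of the difference belonged to NPIPA3, TNS1 and RAB4B-EGLN2, none called. NPIPA3, of a family of near-identical copies whose reads can be split between them, was at 0.162 to 1.16 CPM unstimulated and at most 0.0648 CPM with IL-13. TNS1, a focal adhesion protein, differed through its control effect (-8.13 ± 1.53, against -0.14 ± 0.89 in cells labelled knockdown), and the readthrough gene RAB4B-EGLN2 likewise (8.61 ± 1.98, against -0.65 ± 1.16). NF-kappaB, immediate-early and ATF4 genes had medians near 0 in cells labelled knockdown but -1.40, -1.37 and -0.815 in control cells. The difference medians of 1.37, 1.26 and 0.748 were 0.153, -0.0141 and 0.137 without unstimulated control replicate 1.

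**Figure D5:**
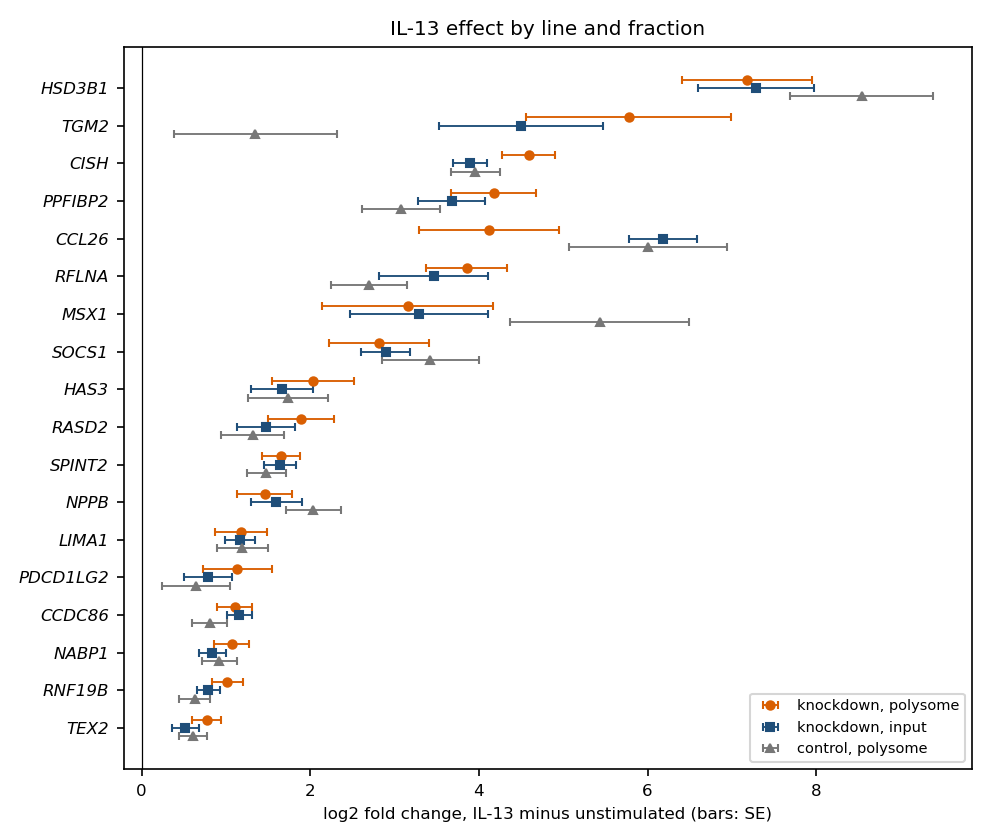
Log2 fold change with SE (IL-13 minus unstimulated) of 18 genes in polysome RNA of cells labelled knockdown (circles), in input RNA of the same cells (squares) and in polysome RNA of control cells (triangles). All 18 genes lie above 0 in the 3 settings, and TGM2, MSX1 and CCL26 are spread widest between them.

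In input RNA of the same cells 15 genes were called (0.0935% of 16044), including 7 of the 8 called in polysome RNA, which is 87.5% of the polysome calls and 46.7% of the input calls. CCL26, SOCS1, NABP1, LIMA1 and NPPB were among the genes called in input alone. No input library of these cells was shallow (14044352 to 34260970 counts), and input libraries varied less. The median IL-13 library was deeper in polysome RNA (29422168 counts) than in input (24976883). The median unstimulated library was shallower in polysome RNA (18232512 counts) than in input (22098511). The shift of the IL-13 effect from input to polysome RNA was called for 0 genes (0%) in edgeR, while limma voom called 0 and DESeq2 called 5. At an unadjusted p under 0.05 in edgeR there were 219 of 16735 genes, fewer than the 836.8 that make up 5%. CISH went from 2.00 ± 0.322 to 29.6 ± 3.59 CPM in input (SD, n = 5), and its effect was 0.65 ± 0.34 (SE) larger in polysome RNA (95% interval -0.04 to 1.34). For CCL26 the estimate was in the other direction, with an interval that excluded 0 before adjustment over genes. In input it went from 0.191 ± 0.106 to 15.0 ± 1.34 CPM (SD, n = 5). Its log2 fold change there was 6.18 ± 0.40, and the effect in polysome RNA was lower by 2.11 ± 0.86 (95% interval -3.85 to -0.38; edgeR adjusted p = 1.00). For HSD3B1 the shift was -0.10 ± 0.57, for SPINT2 -0.03 ± 0.31, for RNF19B 0.18 ± 0.23 and for CCDC86 -0.10 ± 0.26. The smallest p-values of the shift belonged to CEP350, the pseudogene PDCD6P1 and ENSG00000256632, a gene without a symbol here. All 3 were at 0 in every IL-13 polysome library and at no more than 4.35, 0.779 and 0.791 CPM in the unstimulated ones.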

How the data were processed

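Polyadenylated RNA of polysome and input fractions was sequenced from 40 libraries, of which 10 are described and 30 enter comparisons or the spread. Per the file headers, the deposited table gave an estimated count per gene and library, and TPM, which the authors had normalised to length and library. Per the submitters' processing notes, MultiQC, Trimmomatic, Salmon and DESeq2 were used, with no versions; the genome build and annotation are not given in the sources used here. The deposited TPM summed to between 82.3% and 85.9% of a full set per library, so it covers only some of the genes they were scaled over. Of 62263 gene IDs, 62246 matched a symbol.

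Estimated counts were rounded to whole numbers. Low genes were removed by filterByExpr in each fit (at least 99.86% of counts kept), scaled by TMM, and tested with edgeR 4.0.16 quasi-likelihood models in R 4.3.3: 20 polysome libraries for the IL-13 effects and their difference between lines, 20 input libraries for input, and all 40 for the shift between fractions. Tests were two-sided with Benjamini-Hochberg adjustment over all genes tested, called under 0.05. The SE is the log2 fold change divided by the square root of F, and 95% intervals use the t quantile of the fit. IGF2BP3 was compared between lines by an exact permutation test of log2(CPM + 1). The procedure was tested on simulated data. No replicates of the described groups were copies (chi-square per degree of freedom at least 18.23).

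Named genes were all called genes, those called on 40 but not on 20 libraries, IL-13 list members with an unadjusted p below 0.05, the receptor, JAK, STAT6, SOCS and IGF2BP genes, up to 5 uncalled genes in each direction of at least 10 CPM without overlap, the 3 of smallest p for each difference, and members of other lists. RAPGEF3, SLC37A4, PCOLCE2, KRT8, CDH1, CD274, CCL2 and further marker or list genes outside this rule were named after their values were seen. The members, lists and tests were chosen with earlier results of these data known. 1 called gene is not reported here, and counts include it. Alternatives were limma voom (limma 3.58.1) with sample quality weights, the Wald test of DESeq2 1.42.0 and its size factors, other sets of libraries, no filter, a replicate block, a transcript length offset derived from the deposited TPM and leaving out each library.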

Additional observations from a re-analysis of the deposited data

Results flagged for a closer look

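In polysome RNA of cells labelled knockdown, 70 sets of 5 library values of the named genes were examined. Of these, 9 held a library far from the other 4. For independent and normally distributed values about 1 in 20, or 3.5, would do so. The sets come from the same libraries and some hold mostly zeros, so the 9 are not read as an excess. In the unstimulated group, replicate 5 (1816848 counts) was far out for IGF2BP3 (25.6 CPM, others 4.90 to 8.61), TYK2 (61.7 CPM, others 167 to 174) and CCDC86 (76.9 CPM, others 113 to 120). Unstimulated replicate 1 (3980588 counts) was far out for MSX1 (1.25 CPM from 5 counts, others 0 to 0.212) and RAB4B-EGLN2 (10.7 CPM, others 0 to 1.07). Unstimulated replicate 2 was the only one of its group with counts of HSD3B1 (0.212 CPM from 4 counts), and unstimulated replicate 3 was high for TGM2 (1.72 CPM, others 0 to 0.321). With IL-13, replicate 5 (2302952 counts) was high for PPFIBP2 (48.7 CPM from 112 counts, others 17.6 to 25.0), and replicate 4 was high for TGM2 (84.8 CPM, others 7.35 to 28.4). Of the 9 values, 6 belonged to the 3 libraries under 5000000 counts, and the part of depth in them was not tested.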

How the results depend on the processing

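In cells labelled knockdown, the 8 polysome calls became 16 on all 40 libraries, 20 with the Wald test of DESeq2, 19 with limma voom and sample quality weights, 4 without the libraries under 5000000 counts (CISH, HSD3B1, PPFIBP2 and RFLNA), and 5 to 7 without 1 library. They were 8 or 9 with only the 10 libraries compared (RNF19B lost, TGM2 and NPPB gained), no filter (RNF19B and CCDC86 lost, CCL26 and TGM2 gained), DESeq2 size factors or a length offset (NABP1 gained). The 9 calls in control polysome became 21 on 40 libraries, 3 with only the 10 libraries compared and 24 with DESeq2, and 8 to 11 without 1 library. The 15 calls in input became 45 with DESeq2, 54 with limma voom and 8 to 13 without 1 library. The difference between lines had 0 calls in all settings but DESeq2 (3), as had the shift between fractions (DESeq2, 5); for the difference, only the libraries compared is the same fit. No shallow library is in the input fit. The cause of these changes was not tested.

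Correlations of deviations between same-numbered libraries showed no pairing by replicate number. They ran from -0.26 to 0.0067 in cells labelled knockdown, where 0 of 5 correlated best with their own number. In control cells they ran from -0.34 to 0.126. Depth did follow the number in part. In cells labelled knockdown replicate 5 was the shallowest library of both polysome groups (1816848 and 2302952 counts) and of both input groups (15533925 and 14044352 counts). Whether same-numbered libraries shared a batch was not tested. With the replicate number as a block, the polysome calls were 3 in cells labelled knockdown and 2 in control cells, input had 10, and the difference and the shift had 0.

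Over the named genes, 280 of 322 pairs of a gene and an alternative were counted as unchanged. For genes with an unadjusted edgeR p under 0.05, unchanged meant the same direction and side of the threshold. For the others it meant a log2 fold change that moved by less than its SE, whatever its sign. Of the rest, 10 lost the call, 27 gained it and 5 moved with no call, and no called value changed sign. Depth limits genes of few counts most: 3 counts are 1.65 CPM in unstimulated replicate 5.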
